A study of Mus musculus with 2 samples.

Results

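The Mir130 and Mir301 family is described here in heart, where 1 of its genes, Mir130a, gave most of its reads. Another, Mir301, differed most of its members between the 2 libraries. The family was taken by gene name from the GENCODE M21 annotation, as Mir130a, Mir130b, Mir301 and Mir301b, which are 4 of the 2202 miRNA genes in the tables. MicroRNA-seq had been done on total RNA from the whole hearts of 2 female mice of the strain B6CASTF1/J, a cross of C57BL/6J with CAST/EiJ, at 10 days of age. The labels give 1 group with no treatment and number the hearts as biological replicates 1 and 2, each with 1 library of inserts below 30 nt. No contrast between conditions exists, so the levels are descriptions, and every test compares these 2 libraries. With 1 library per heart, a difference between the animals and a difference between the library preparations cannot be told apart.

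MicroRNAs guide Argonaute proteins to messenger RNAs by pairing of their seed, bases 2 to 8 of the mature strand, with a target, which lowers its translation and stability. Members of a family that share a seed can therefore bind overlapping sets of targets. The miR-130 and miR-301 microRNAs are known from vessels: miR-130a was described in endothelial cells as a repressor of antiangiogenic homeobox genes, and the family has been linked to pulmonary hypertension. Mir301 lies in Ska2, a gene of the kinetochore, the structure that joins chromosomes to the spindle.

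The mature strands are shown first because the shared seed is what defines the family. RefSeq (build GRCm38.p6) gives a 3p strand for 3 members, written here 5′ to 3′ with the seed in capitals.
miR-130a-3p: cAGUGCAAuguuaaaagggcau
miR-130b-3p: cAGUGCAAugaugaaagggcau
miR-301a-3p: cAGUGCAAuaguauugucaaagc
The seed AGUGCAA was the same in all 3. Counted from 1 at the 5′ end, miR-130a-3p and miR-130b-3p differed at 2 of 22 bases, U11A and A13G, with the base of miR-130a-3p written first. miR-130a-3p and miR-301a-3p were identical over the first 9 bases and differed at 10 of the 22 compared. These 3 strands thus share the 5′ end, and miR-301a-3p differs from both miR-130 strands towards the 3′ end. No 3p strand was given for Mir301b.

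The hairpins show the same letters in all 4 genes, Mir301b included. Capitals mark the seed AGUGCAA and, where present, its reverse complement UUGCACU.
Mir130a: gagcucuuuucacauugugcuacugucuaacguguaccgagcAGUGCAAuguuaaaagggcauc
Mir130b: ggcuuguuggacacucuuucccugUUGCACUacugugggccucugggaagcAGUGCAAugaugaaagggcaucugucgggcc
Mir301: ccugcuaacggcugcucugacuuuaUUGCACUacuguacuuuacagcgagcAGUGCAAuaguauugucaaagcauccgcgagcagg
Mir301b: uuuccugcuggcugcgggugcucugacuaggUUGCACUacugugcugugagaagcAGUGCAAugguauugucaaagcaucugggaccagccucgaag
Each hairpin held the seed letters once. The reverse complement stood on the 5′ arm of Mir130b, Mir301 and Mir301b and was not in the Mir130a hairpin. Of the 1005 hairpins in the RefSeq table, 12 (1.19%) held AGUGCAA anywhere on the gene strand.

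The 5p strands are shown because they also differ within the family, with bases 2 to 8 in capitals.
miR-130a-5p: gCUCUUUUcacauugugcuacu
miR-130b-5p: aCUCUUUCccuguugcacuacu
miR-301a-5p: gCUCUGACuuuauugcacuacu
miR-301b-5p: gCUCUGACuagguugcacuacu
The miR-301a and miR-301b 5p strands had the same bases 2 to 8, CUCUGAC, and differed at 3 of 22 bases, U10A, U11G and A12G, with miR-301a first. The 5p strands of miR-130a and miR-130b differed at 7 of 22 bases, and 1 of these, U8C, lies within bases 2 to 8. The tables count reads per gene, so the 2 arms of a hairpin were not separated and each value below is the sum of both.

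The genes lie at 3 places in the genome (mm10, GENCODE M21). Mir130a is intergenic on the minus strand (chr2:84741115-84741178), 990 bases from Gm19426 and 2459 bases from Ypel4. Mir301 is on the plus strand (chr11:87113004-87113089), in an intron of both Ska2 transcripts that span it. Mir130b (chr16:17124061-17124142) and Mir301b (chr16:17124400-17124496) lie 257 bases apart on the minus strand, in introns of all 3 transcripts of 2610318N02Rik that span each. No other miRNA gene is annotated within 10 kb of a member.

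Reads on named genes numbered 4260561 in replicate 1 and 4583025 in replicate 2. Multimapping reads, which the tables assign to no gene, took 38.9% and 38.0% of all reads. The longest run that a member's hairpin shared with any other annotated miRNA gene was 17 nt for Mir130a (with Mir6389) and 16 nt for each of Mir130b, Mir301 and Mir301b. Mir301 and Mir301b shared that run of 16 nt with each other. The markers of heart muscle Mir208a, Mir208b and Mir499 summed to 9644 CPM (counts scaled so that the named genes of a library sum to 1000000) in replicate 1 and 6536 in replicate 2. The neuronal markers Mir9-1 and Mir124a-1 had 0 counts, which shows nothing about neural RNA, because other gene copies carry the same mature strands and such reads are not assigned.

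Mir130a was the leading member in both hearts. It had 24941 counts in replicate 1 and 23444 in replicate 2, or 5854 and 5115 CPM, a mean of 5485 ± 522 CPM (SD, n = 2). It ranked 30 among the 2202 miRNA genes by mean CPM, between Mir93 (5585 ± 648 CPM) and Mirlet7f-2 (5068 ± 795 CPM). The ranges of these 3 genes over the hearts overlapped. Its share of the counts on named genes was 0.585% in replicate 1, with an exact 95% Clopper-Pearson interval of 0.578 to 0.593, and 0.512% in replicate 2 (0.505 to 0.518).

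Mir130b, which differs from Mir130a at 2 bases of the 3p strand, stood far below it. It had 1726 counts in replicate 1 and 1601 in replicate 2, or 405 and 349 CPM, a mean of 377 ± 39.4 CPM (SD, n = 2). Mir130a was 14.5-fold above it in replicate 1, a log2 ratio of 3.85 with an exact 95% interval of 3.78 to 3.92, and 14.6-fold above it in replicate 2 (3.87, 3.80 to 3.95). The pair kept nearly the same ratio in both hearts, with a change in log2 ratio of 0.02. Differences in adapter ligation and mapping between the sequences are part of any such ratio. No scaling by length was applied, because each read comes from a single short insert.

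Mir301b, which lies beside Mir130b in the same introns, was the least abundant member. It had 24 counts in replicate 1 and 37 in replicate 2, or 5.63 and 8.07 CPM, a mean of 6.85 ± 1.73 CPM (SD, n = 2). Mir130b exceeded it 71.9-fold in replicate 1 (log2 ratio 6.17, interval 5.59 to 6.81), against 43.3-fold in replicate 2 (5.44, 4.97 to 5.95). The intervals of that ratio overlapped between the hearts.

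Mir301 was the member that changed its place. It had 252 counts in replicate 1 and 3846 in replicate 2, or 59.1 and 839 CPM, so that its SD of 552 CPM exceeded its mean of 449 CPM (n = 2). Its rank among the miRNA genes was 186 in replicate 1 and 81 in replicate 2. Mir301 was below Mir130b in replicate 1 and above it in replicate 2, and their mean levels did not differ beyond the spread of the hearts.

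**Figure D1:**
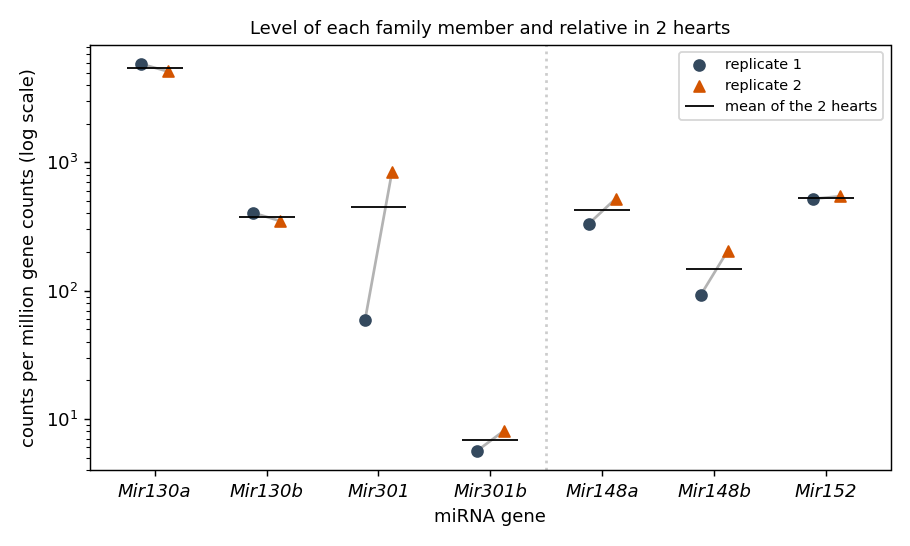
CPM on a log axis for the 4 family members and, right of the dotted line, the Mir148 and Mir152 genes. Circles are replicate 1, triangles replicate 2 and horizontal bars the mean of the 2 hearts. Mir130a lies at 5115 CPM or above in both, Mir301b at 8.07 CPM or below, and Mir301 moves from 59.1 to 839 CPM.

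The summed counts of the family were 26943 in replicate 1 and 28928 in replicate 2. They made up 0.632% of the counts on named genes in replicate 1 (0.625 to 0.640, exact 95% interval) and 0.631% in replicate 2 (0.624 to 0.638), a mean of 0.632% ± 0.000836 (SD, n = 2). The shares overlapped within counting error. With TMM scaling, which is explained with the tests, the log2 ratio of the sum was 0.06 (0.04 to 0.09), so the direction of the total depends on the scaling. Without Mir301, the other 3 members took 0.626% (0.619 to 0.634) and 0.547% (0.541 to 0.554), which did not overlap.

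Mir130a made up 92.6% of the family's counts in replicate 1 (92.2 to 92.9, exact 95% interval) and 81.0% in replicate 2 (80.6 to 81.5). Mir130b made up 6.41% (6.12 to 6.71) and 5.53% (5.27 to 5.80). Mir301 made up 0.935% (0.824 to 1.06) in replicate 1 and 13.3% (12.9 to 13.7) in replicate 2. Mir301b made up 0.0891% (0.0571 to 0.133) and 0.128% (0.0901 to 0.176), with intervals that overlapped. Mir130a and Mir130b together carried 0.626% and 0.546% of all counts on named genes. Mir301 and Mir301b together carried 0.00648% and 0.0847%.

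**Figure D2:**
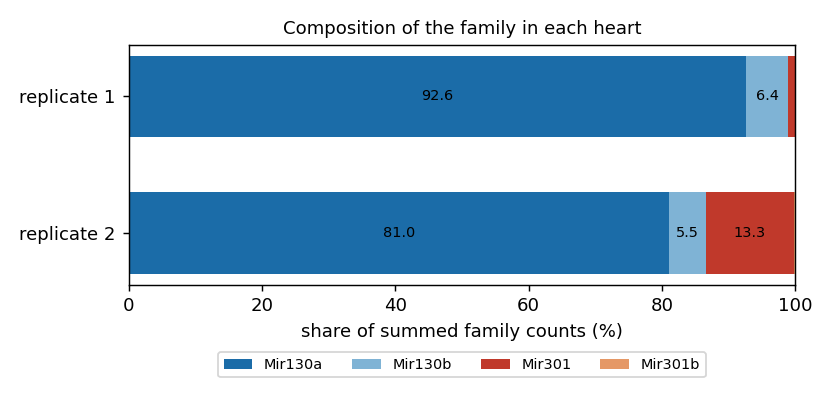
Share of the family's summed counts, in percent, taken by each member in each heart, with bars that start at 0 and sum to 100. Mir130a takes 92.6% in replicate 1 and 81.0% in replicate 2, and the red segment of Mir301 grows from 0.935% to 13.3%, while Mir301b is too small to see.

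Genes whose counts summed to 20 or more were tested for a difference between the libraries, with an exact two-sided binomial test given their effective sizes and Benjamini-Hochberg adjustment over the 375 genes tested. This test holds counting noise only, not the variation between animals, and 55.2% of the genes passed it at an adjusted p of 0.05. All 4 members were tested and 3 passed, 1 higher in replicate 2 (26.1% of all genes tested) and 2 higher in replicate 1 (29.1%). A count of 3 among 4 members is near what that background gives. Of the genes tested, 10.7% passed and were also 2-fold or more apart, and 1 member, Mir301, was among them.

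Ratios are given as replicate 2 over replicate 1 after scaling by trimmed mean of M values (TMM). For Mir301 the log2 ratio was 3.89 (exact 95% interval 3.71 to 4.08), a 14.8-fold difference. Among the 266 genes whose counts summed to 100 or more it ranked 1 by ratio and 2 by absolute log2 ratio. Mir26a-1 differed more, in the other direction, with 668 counts in replicate 1 and 30 in replicate 2 (log2 ratio -4.49). Another gene copy carries its mature strand and such reads are not assigned, so these counts do not give the level of that strand. For Mir130a the log2 ratio was -0.13 (-0.15 to -0.10; exact binomial test, Benjamini-Hochberg adjusted p = 7.16e-22), and for Mir130b it was -0.15 (-0.25 to -0.05; adjusted p = 0.00708). With DESeq2 size factors, which came out as 1 in both libraries and so amount to no scaling, Mir130b was at -0.11 and did not pass (adjusted p = 0.0580). With such factors taken over the 346 genes at 10 or more counts in both libraries, an alternative chosen after seeing the data, it was at -0.13 and passed (adjusted p = 0.0187). For Mir301b the log2 ratio was 0.58 (-0.19 to 1.39; exact binomial test, adjusted p = 0.193), an interval that holds both no difference and a 2-fold difference. The median log2 ratio was 0.22 over the 4 members and -0.02 over the 375 genes, and the median absolute log2 ratio was 0.36 and 0.37.

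**Figure D3:**
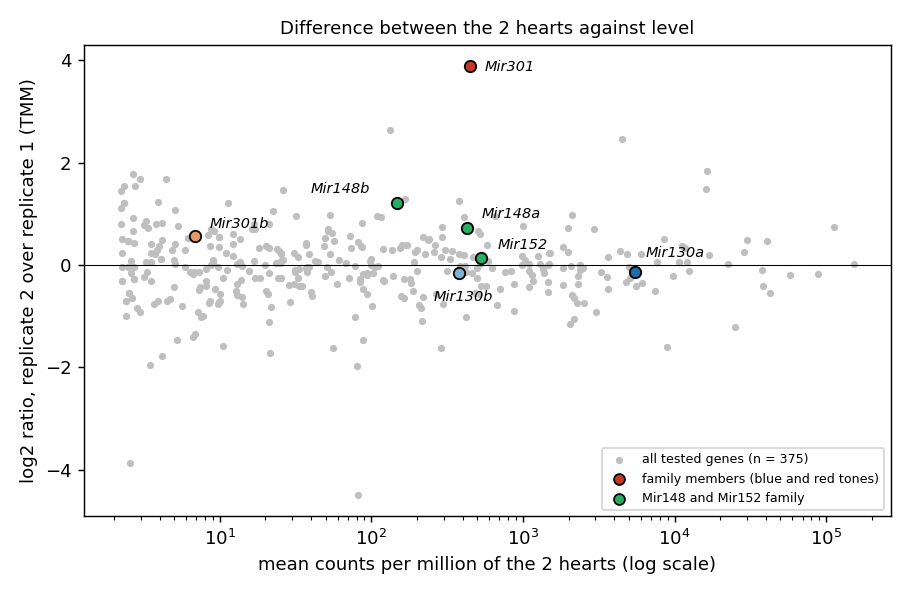
Log2 ratio of replicate 2 over replicate 1 (TMM scaled) against mean CPM on a log axis, for the 375 tested genes in grey. Family members are in blue and red tones and the Mir148 and Mir152 genes in green. Mir301 lies at 3.89, above all other genes, while Mir130a and Mir130b lie close to 0.

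A change in the ratio of 2 members needs no scaling of the libraries, and was tested for all 6 pairs with a two-sided Fisher's exact test and Benjamini-Hochberg adjustment over the 6. The 3 pairs that hold Mir301 passed and the other 3 did not. Those 3 passes rest on the same Mir301 counts, whose difference was already known, so they are not separate results. Like the binomial test, Fisher's exact test holds counting noise only. Mir130a was 99.0-fold above Mir301 in replicate 1 but 6.10-fold in replicate 2, a log2 change of -4.02 (Fisher's exact test, adjusted p below 1e-300). Mir130b exceeded Mir301 6.85-fold in replicate 1 (log2 ratio 2.78, interval 2.58 to 2.97), while in replicate 2 Mir301 exceeded Mir130b 2.40-fold (-1.26, -1.35 to -1.18). This was the only pair of the 6 whose order turned between the hearts.

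Mir301 exceeded Mir301b, its closest relative by the 5p strand, 10.5-fold in replicate 1, against 104-fold in replicate 2. The log2 change was 3.31 (Fisher's exact test, adjusted p = 2.58e-13). For the remaining pairs the log2 change was 0.02 for Mir130a over Mir130b (Fisher's exact test, adjusted p = 0.720), -0.71 for Mir130a over Mir301b (adjusted p = 0.0863) and -0.73 for Mir130b over Mir301b (adjusted p = 0.0804). The last 2 rest on the 24 and 37 counts of Mir301b. Within each library all 6 pairs differed by more than counting error, so the order was Mir130a, Mir130b, Mir301, Mir301b in replicate 1 and Mir130a, Mir301, Mir130b, Mir301b in replicate 2.

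**Figure D4:**
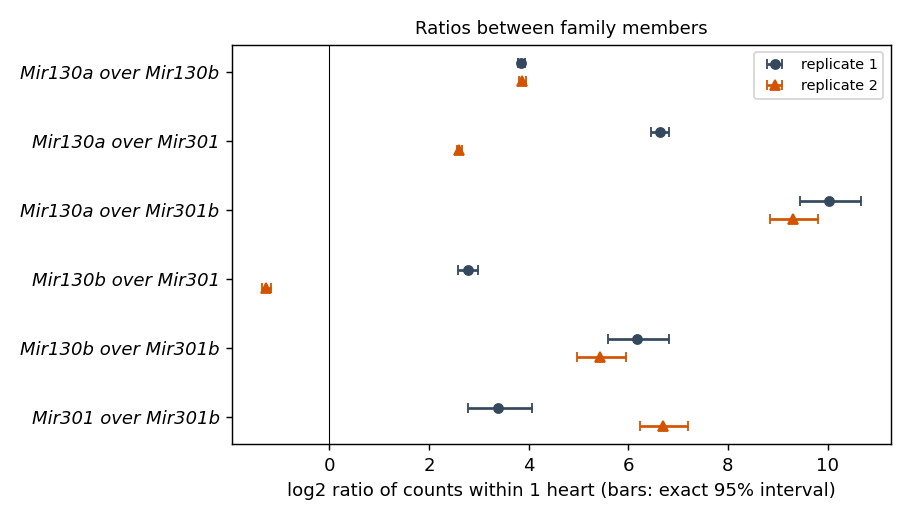
Log2 ratio of the counts of 2 family members within 1 heart for the 6 pairs, with exact 95% intervals as bars. Circles are replicate 1 and triangles replicate 2. The 3 pairs with Mir301 lie far apart between the hearts, and Mir130b over Mir301 crosses 0, from 2.78 to -1.26.

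Among these 266 genes, the nearest to Mir301 in log2 ratio were Mir144 (2.64, interval 2.40 to 2.89), an erythroid miRNA, and Mir195a (2.47, 2.43 to 2.51), of the miR-15 and miR-16 family. Both lay more than 1 log2 unit below it, at distances of 1.25 and 1.42. Nearest to Mir130a were Mir872 (-0.13) and Mir674 (-0.13), and nearest to Mir130b were Mir874 (-0.15) and Mir340 (-0.15). A likeness over 2 libraries is a single ratio and orders genes loosely.

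Markers of other cell types also differed between the hearts. The 3 erythroid markers (Mir144, Mir451a and Mir486) summed to 549.7 CPM in replicate 1 and 1048 CPM in replicate 2. All 3 passed the binomial test as higher in replicate 2, as did 26.1% of all genes tested. Their log2 ratios were uneven, at 2.64, 1.25 and 0.15 in that order. The 4 endothelial markers summed to 87600 and 138495 CPM, nearly all of it from Mir126a (86321 and 137860 CPM). Mir126a was higher in replicate 2 (0.74), Mir221 (-0.89) and Mir222 (-1.46) were higher in replicate 1, and Mir126b was below the count minimum. The median log2 ratio of this list was -0.89, so its sum and its median differ in sign. The 3 heart muscle markers were all higher in replicate 1, as were 29.1% of all genes tested. Muscle genes outside this list were mixed. Mir1a-2 was higher in replicate 2 (0.37), Mir133a-1 was higher in replicate 1 (-1.46), and Mir1a-1, Mir133b and Mir206 did not pass. Other gene copies carry the mature strands of Mir1a-1, Mir1a-2 and Mir133a-1, and such reads are not assigned. Their counts are the uniquely placed remainder, 185 and 245 for Mir1a-2 and 33 and 12 for Mir133a-1. They do not give the level of those mature strands. Of the 5 leukocyte markers, which summed to 3607 and 3720 CPM, 2 were higher in replicate 2 and the others did not pass. The 4 epithelial markers summed to 736 and 361 CPM and were all higher in replicate 1, as were 29.1% of all genes tested. Genes of the Mir200 family outside this list were mixed. Mir200b was higher in replicate 2 (0.95), Mir429 was higher in replicate 1 (-0.72) and Mir200a did not pass. The liver marker Mir122 was higher in replicate 2 (0.95). Of the smooth muscle markers, Mir143 gave nearly all of the sum (51605 and 33943 CPM) and was higher in replicate 1, while Mir145a did not pass (-0.02). The erythroid, endothelial, leukocyte and liver sums were thus higher in replicate 2, as Mir301 was, and the heart muscle, smooth muscle and epithelial sums were lower. Their part in its difference was not tested. In whole tissue, a change in the number of cells of a type and a change in the RNA per cell cannot be told apart.

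Genes of proliferation-associated clusters (the miR-17 and miR-106b clusters) were looked at because the host of Mir301, Ska2, acts in cell division. Their 8 members summed to 15262 CPM in replicate 1 and 13163 CPM in replicate 2. Of the 7 tested, 3 were higher in replicate 2, 3 were higher in replicate 1 and 1 did not pass, with a median log2 ratio of 0.02. Examples are Mir25 (0.67), which shares a cluster with Mir93 (-0.17), and Mir17 (-0.47).

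Of all mature strands in the RefSeq table, 7 of 1738 had the seed AGUGCAA, and 4 of these come from genes outside the family. They are shown because they would add to the same seed if they were present.
miR-130c: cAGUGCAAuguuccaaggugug
miR-721: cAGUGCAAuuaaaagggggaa
miR-6341: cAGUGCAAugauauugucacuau
miR-6389: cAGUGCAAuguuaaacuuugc
Mir130c, Mir721, Mir6341 and Mir6389 had 0 counts in both hearts. A count of 0 allows up to 3 counts, or 0.704 CPM in replicate 1 and 0.655 CPM in replicate 2. That limit is the rule used for counts of 0 in these tables. The exact 95% interval of the share reaches higher, to 8.66e-05% and 8.05e-05% of the counts on named genes.

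The Mir148 and Mir152 family has an overlapping seed, since its 3p strands hold the 6 letters AGUGCA 1 base further from the 5′ end. It was fixed in advance as the relative to compare, and other families with overlapping seeds were not searched for. The seed is again in capitals.
miR-148a-3p: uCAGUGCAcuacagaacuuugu
miR-148b-3p: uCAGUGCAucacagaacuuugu
miR-152-3p: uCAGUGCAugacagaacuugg
These microRNAs are known as repressors of a DNA methyltransferase. Mir148a went from 333 to 522 CPM, Mir148b from 92.7 to 204 CPM and Mir152 from 520 to 544 CPM. All 3 passed the binomial test as higher in replicate 2, as did 26.1% of all genes tested, at log2 ratios of 0.72 (0.62 to 0.81), 1.21 (1.04 to 1.38) and 0.13 (0.05 to 0.22). The Mir130 and Mir301 family was in sum 6.69-fold above them in replicate 1 (log2 ratio 2.74, interval 2.69 to 2.79) but 4.97-fold in replicate 2 (2.31, 2.27 to 2.35). The share of the Mir148 and Mir152 family went from 0.0945% (0.0916 to 0.0975) to 0.127% (0.124 to 0.130). The largest difference among these relatives, 2.31-fold for Mir148b, compares with 14.8-fold for Mir301.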

How the data were processed

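MicroRNA-seq of 2 hearts was analysed, 1 library per heart. The authors deposited 1 table per library of raw read counts per gene on mm10 with GENCODE M21, per the file headers. The aligner and the counting program were not given in the sources used here. The category rows for unmapped, multimapping, outside-feature and ambiguous reads were left out of library sizes. Multimapping reads are not assigned to genes, so each member is counted through its uniquely placed reads. Reads from both parental genomes were counted on mm10, and any effect of strain variants was not tested.

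All 2202 IDs matched M21 by ID. The gene-strand column was used. The denominator of CPM and of percent shares was the sum of counts on named genes. TMM factors came from edgeR 4.0.16 in R 4.3.3 (1.02 and 0.977), and log2 ratios used a prior count of 0.5. The binomial test was tested on simulated counts with known fold changes and no variation beyond counting noise. That simulation says nothing about calls that come from variation between animals or library preparations. Exact 95% intervals are Clopper-Pearson intervals. They cover counting error only, because reads without molecular identifiers are not independent molecules.

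Named genes were the members, genes with the same seed, the Mir148 and Mir152 genes, miRNA genes within 10 kb, the 2 genes nearest in log2 ratio (summed count of 100 or more), the neighbours in level, and markers beside a result. Marker lists were cardiac muscle, endothelial, smooth muscle, erythroid, leukocyte, epithelial, liver, neuronal and proliferation-associated clusters. Muscle and Mir200 family genes outside these lists, and Mir26a-1, were named afterwards beside the results they limit. The smooth muscle markers summed to 53735 CPM in replicate 1 and 35952 in replicate 2, and the liver marker Mir122 was at 76.3 and 141 CPM. Members and lists were chosen with earlier results of these data known. The alternatives were DESeq2 1.42.0 size factors, median-of-ratios factors computed in Python over genes at 10 or more counts in both libraries (chosen after seeing the data), total counts, the unstranded column, other denominators, minimums and prior counts, and leaving out each replicate. Computation also used Python 3.11.15, scipy 1.17.1 and statsmodels 0.14.6. Signal tracks were not used here.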

Additional observations from a re-analysis of the deposited data

Results flagged for a closer look

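Mir130a had 6 reads on the strand opposite to the gene in replicate 2 and 0 in replicate 1, in a column that the report does not use. The 6 reads exceed the upper limit of 3 counts for a count of 0, and compare with 23444 reads on the gene strand of the same library. The other 3 members had 0 opposite-strand reads in both hearts.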

How the results depend on the processing

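Of 90 values under alternatives, 78 kept their direction and side of the threshold, or stayed within the spread of the hearts, 11 moved and 1 lost its call. Of these, 18 leave out a replicate, and with 2 hearts a mean cannot then move by more than 1 SD, so they say nothing of stability. No paired analysis was possible because both hearts belong to the same group. Mir130b did not pass with DESeq2 size factors (log2 ratio -0.11, adjusted p = 0.0580; range over its alternatives 3.20e-05 to 0.0580). Those factors were 1 in both libraries, where 48 of the 602 genes with a count in both had equal counts, so they apply no scaling. Over the 346 genes at 10 or more counts in both, an alternative chosen after seeing the data, Mir130b was at -0.13 and passed (adjusted p = 0.0187). The log2 ratio of Mir301 ranged from 3.82 to 3.93. The summed family was at 0.06 with TMM, 0.10 with DESeq2 size factors and -0.0027 with total counts (-0.03 to 0.02), so its direction depends on the scaling, while without Mir301 it was below 0 under all 3. Over all reads the mean CPM was 2306 for Mir130a, 158.5 for Mir130b and 2.93 for Mir301b, and the family share 0.267%. Without the most abundant gene they were 6472 and 445 CPM for Mir130a and Mir130b, and 0.745%. With the unstranded column, where reads on overlapping genes are dropped, they were 7785, 535 and 9.81 CPM, and 0.899%. Mir301 went from 449 CPM to 200.2, 529 and 659 under these 3 settings. It counted as unmoved because its SD of 552 CPM is wide, larger than its mean. These shifts follow from the changed denominator. Genes past the test numbered 186 to 215 against 207. Depth limits Mir301b, at 24 and 37 counts.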
